A study of Homo sapiens with 20 samples.

Results

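The double-stranded RNA (dsRNA) sensing genes described here are the helicase receptors RIGI, IFIH1 and DHX58, the endosomal receptor TLR3, the adaptor MAVS, the kinase EIF2AK2, the editing enzyme ADAR, the signalling kinase TBK1, the transcription factor IRF3 and the interferon gene IFNB1. They were chosen by gene symbol, as the probe sets annotated to exactly 1 of these 10 symbols. All 10 were measured, among 19775 genes in all, by 21 probe sets. Each gene was read by its probe set with the highest mean over the 20 arrays, and 5 members had other probe sets as a check. DHX58, ADAR, IRF3, TBK1 and IFNB1 had 1 probe set each, so their values could not be checked in this way. No measured value entered the choice of members, but they and the lists below were put together with earlier results of these arrays known.

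Long dsRNA is a sign of virus infection, and cells read it in several compartments. RIG-I (encoded by RIGI) and MDA5 (IFIH1) bind it in the cytoplasm and signal through MAVS on mitochondria, while TLR3 binds it in endosomes. Both routes reach TBK1, which phosphorylates IRF3, and IRF3 then switches on IFNB1 and a set of interferon-stimulated genes. Cells also make dsRNA of their own, among it transcripts of repeats and endogenous retroviruses that chromatin regulators such as LSD1 are known to silence in other systems, and ADAR edits such RNA so that the sensors do not respond to it. The small interfering RNAs used for knockdown are themselves short RNA duplexes, and both arms of each knockdown experiment received one.

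RNA of the human prostate cancer line LNCaP and of its castration-resistant derivative C42B was hybridized to Affymetrix 3′ arrays in 6 groups. C42B cells received siLSD1 or siNTC (3 arrays each) for 6 h and were then kept for 96 h in 10% charcoal-stripped, steroid-depleted serum. LNCaP cells received siLSD1 or siNTC at 50 nM (3 arrays each) and were kept for 96 h in 10% fetal bovine serum, and RNA of 2 wells was pooled per array. Further C42B cells spent 72 h in stripped serum and then 16 h with 100 nM dihydrotestosterone (DHT) or with the ethanol vehicle (4 arrays each), without siRNA. Replicates of the C42B experiments came from separate wells and those of LNCaP are called biological by the labels, but separate passages are not mentioned, so a p-value here is set against the spread between such samples, which may be technical. Each line had a single siLSD1 label, so effects of lower LSD1 and of that siRNA's sequence cannot be told apart. None of the 20 arrays was of untransfected cells kept beside the siRNA arms.

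KDM1A, the gene of LSD1, averaged 7.88 on the log2 intensity scale with siLSD1 and 10.29 with siNTC in C42B, and 7.30 with siLSD1 and 10.08 with siNTC in LNCaP. All 8 measured luminal prostate markers were bright in every group, where bright means an average of 6 or more in log2 units over a group's arrays, and dim a lower one. Of 10 measured leukocyte markers, 7 were dim in every C42B group and all 10 in both LNCaP groups. The 3′ minus 5′ signal of the actin control overlapped between the arms of each experiment. Array medians were 63.3 to 65.1 in the LNCaP experiment and 78.4 to 86.1 in the C42B experiments, so changes were tested within experiments. The same level of 6 marked dim genes in all of them, so numbers of dim genes are not compared between the lines. In bulk RNA, fewer expressing cells and less RNA per cell cannot be told apart.

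Promoter sequence is shown for the members whose promoter holds the core of an interferon-stimulated response element, a site through which IRF proteins act. RefSeq promoters (GRCh38.p14, 250 bases before to 50 after the gene start) were found for 8 of the 10 members, all but DHX58 and IRF3. The motif searched was GAAANNGAAA on both strands, with overlapping matches counted. It occurred in the promoters of 3 members, IFIH1, TLR3 and EIF2AK2, and not in those of RIGI, MAVS, ADAR, TBK1 and IFNB1, against 4.38% of the 27305 genes in the table. Sites that depart from this motif or lie outside these promoters were not searched for. A promoter without a match may therefore still hold a site for IRF proteins. IFIH1 held 3 matches, a pair of overlapping ones and another near the start, and TLR3 and EIF2AK2 held 1 each, at the gene start. Capitals mark the matches, read 5′ to 3′ along the gene's strand.
IFIH1, upstream matches (chr2:162318803-162318868, minus strand): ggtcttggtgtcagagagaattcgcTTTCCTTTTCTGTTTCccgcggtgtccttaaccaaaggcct
IFIH1, match near the start (chr2:162318671-162318730, minus strand): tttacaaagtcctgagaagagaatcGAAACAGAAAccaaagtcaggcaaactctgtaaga
TLR3 (chr4:186069127-186069186, plus strand): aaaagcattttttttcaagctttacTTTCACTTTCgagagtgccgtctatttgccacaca
EIF2AK2 (chr2:37156952-37157011, minus strand): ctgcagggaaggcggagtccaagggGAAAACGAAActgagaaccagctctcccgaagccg

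With siLSD1 in C42B, 2 members rose, RIGI and EIF2AK2, and 1 fell, IRF3. The other 7 did not pass limma's test at an adjusted p under 0.05 over all 19775 genes, at which 8.66% of all genes were called higher and 9.39% lower (18.0% in all). The members' median log2 fold change was 0.04, against −0.02 over all genes. In LNCaP, RIGI, TLR3 and EIF2AK2 rose and IRF3 fell with siLSD1, beside 13.4% of all genes higher and 12.5% lower (25.9% in all), with a median of 0.13 against 0.01. With DHT, TBK1 and MAVS rose and IFIH1, RIGI and ADAR fell, beside 13.4% of all genes higher and 19.4% lower (32.7% in all), with a median of 0.02 against 0.01. RIGI was thus higher with siLSD1 in both lines and lower with DHT. By the brightest probe sets, the member changes furthest from 0 on the log2 scale were those of IFIH1, which fell by 37.6% with DHT, and of RIGI, which rose by 50.8% with siLSD1 in LNCaP.

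Counted by whether the arms overlapped, 6 members had separate arms with siLSD1 in C42B, 4 higher and 2 lower, beside 36.3% of all genes (16.3% higher and 19.9% lower). In LNCaP 6 had separate arms, 5 higher and 1 lower, beside 40.1% of all genes (20.6% higher and 19.5% lower). With DHT 5 had separate arms, 2 higher and 3 lower, beside 34.6% of all genes (14.0% higher and 20.6% lower). Of the 21 member probe sets, tested among all 41091, 3 passed higher and 1 lower with siLSD1 in C42B (6.37% and 6.32% of all probe sets), 7 higher and 2 lower in LNCaP (11.2% and 10.7%), and 3 higher and 5 lower with DHT (12.1% and 14.9%). With 10 members these shares rest on few genes. The 8 stromal and endothelial markers, 3 of which were dim in each group, summed to lower intensities with siLSD1 (840.0 to 878.6) than with siNTC (986 to 1099) in LNCaP, and with DHT (970.4 to 1035) than with vehicle (1067 to 1228), where COL3A1 fell to a dim level (by at least 1.203 counted from 6), and their part in the member changes was not tested.

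**Figure D1:**
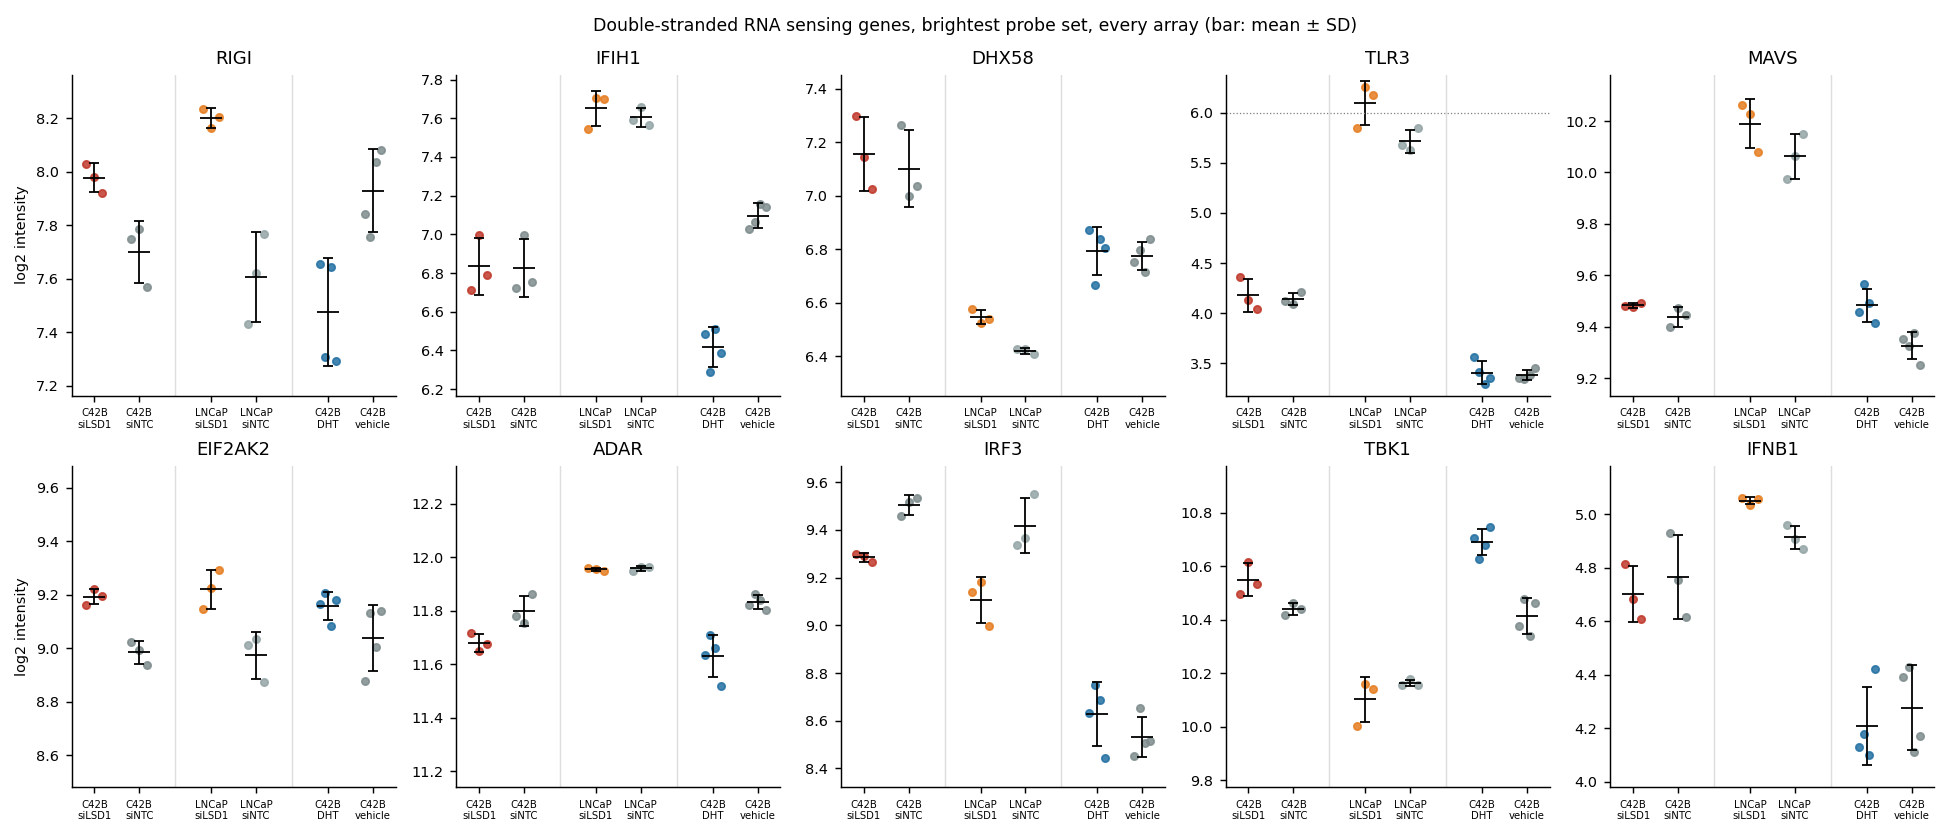
Log2 intensity of the brightest probe set of each of the 10 members on every array (points, left to right in replicate order), with the group mean and SD (bars), by experiment, each panel on its own scale and the dotted line at 6. With siLSD1 in LNCaP the 3 RIGI values lie between 8.16 and 8.24, above all siNTC values, and with DHT the 4 IFIH1 values lie between 6.29 and 6.51, below all vehicle values.

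RIGI, the sensor of short, phosphate-ended dsRNA, gave 8.03, 7.98 and 7.92 with siLSD1 in C42B, against 7.75, 7.79 and 7.57 with siNTC. Every siLSD1 array lay above every siNTC array, as it did in the same direction for 16.3% of all genes. The log2 fold change was 0.28 ± 0.07 (SE, n = 3 per group), a rise of 21.1% (adjusted p = 0.033). An exact permutation test, two-sided, gave p = 0.1, below which 3 arrays against 3 cannot go. The call was lost (adjusted p = 0.065 to 0.097) on leaving out siLSD1 replicate 1, 2 or 3 or siNTC replicate 1 or 3.

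In LNCaP, RIGI gave 8.24, 8.16 and 8.21 with siLSD1, against 7.43, 7.62 and 7.77 with siNTC. The groups did not overlap, and the siNTC arrays spread more widely (SD 0.17) than the siLSD1 arrays (SD 0.04). RIGI rose by 0.59 ± 0.09 on the log2 scale, or 1.51-fold (n = 3 per group, adjusted p = 0.0014, exact permutation p = 0.1), and 6.14% of all genes changed by more in either direction. The call held under all 16 alternative settings tried, with log2 fold changes of 0.51 to 1.04.

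The brightest RIGI probe set, 242961_x_at, carries the suffix that Affymetrix gives where probes can match other transcripts as well. The other RIGI probe sets moved further in LNCaP. Probe set 222793_at gave 8.44, 8.55 and 8.61 with siLSD1, against 7.19, 6.78 and 6.95 with siNTC, a 2.94-fold rise (log2 fold change 1.56 ± 0.11, adjusted p = 3.15e-05 over 41091 probe sets). Probe set 218943_s_at rose by 0.98 ± 0.10 (adjusted p = 0.00021). In C42B, 222793_at rose by 0.39 ± 0.07 (adjusted p = 0.012), whereas 218943_s_at, dim in both groups, changed by 0.12 ± 0.07 (adjusted p = 0.31). The size of the RIGI rise in LNCaP therefore depended on the probe set, and its direction did not.

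With DHT in C42B, RIGI gave 7.66, 7.31, 7.65 and 7.29, against 7.84, 7.76, 8.04 and 8.08 with vehicle. All DHT arrays lay below all vehicle arrays, as for 20.6% of all genes, although the DHT arrays of replicates 2 and 4 lay well below those of replicates 1 and 3. The log2 fold change was −0.45 ± 0.11 (n = 4 per group, adjusted p = 0.0102, exact permutation p = 0.029, below which 4 against 4 cannot go). The other probe sets fell as well, 222793_at by 0.32 ± 0.08 (adjusted p = 0.0144) and 218943_s_at by 0.73 ± 0.16 (adjusted p = 0.0062) on the log2 scale.

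IFIH1 encodes MDA5, the sensor of long dsRNA. With DHT it gave 6.49, 6.29, 6.51 and 6.39, against 7.03, 7.06, 7.16 and 7.14 with vehicle. The groups were separated by more than the spread within either, and IFIH1 fell by 0.68 ± 0.06 on the log2 scale (n = 4 per group, adjusted p = 1.88e-05, exact permutation p = 0.029). In all, 4.88% of genes changed by more with DHT. The call held under all 17 alternatives in which IFIH1 was tested, at −0.71 to −0.35. The value nearest 0 came from averaging in its other probe sets, 1555464_at and 216020_at, which were dim in every group and did not pass with DHT by themselves.

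With siLSD1, IFIH1 did not share the rise of RIGI. It gave 7.55, 7.71 and 7.70 with siLSD1 in LNCaP, against 7.59, 7.66 and 7.56 with siNTC, and the groups overlapped. The log2 fold change was 0.05 with a 95% interval of −0.11 to 0.20 (adjusted p = 0.68), and in C42B it was 0.01 with an interval of −0.22 to 0.24 (adjusted p = 0.96). A dim IFIH1 probe set, 1555464_at, passed lower with siLSD1 in LNCaP (−0.23 ± 0.07, adjusted p = 0.033).

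DHX58 encodes LGP2, a relative of RIG-I and MDA5 that lacks their signalling domains and modulates them. It was read by 1 probe set and did not pass in any comparison. In LNCaP it gave 6.58, 6.52 and 6.54 with siLSD1, against 6.43, 6.43 and 6.41 with siNTC. These groups did not overlap, but the difference of 0.13 ± 0.05 missed the threshold (n = 3 per group, limma adjusted p = 0.13). The log2 fold change was 0.06 (95% interval −0.17 to 0.28) with siLSD1 in C42B and 0.02 (−0.10 to 0.14) with DHT.

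TLR3 was dim in all 4 C42B groups, at group means of 3.38 to 4.18. In LNCaP it stood near the threshold of brightness and gave 5.85, 6.26 and 6.18 with siLSD1, against 5.68, 5.62 and 5.85 with siNTC. The arms touched, since the lowest siLSD1 array (5.847) and the highest siNTC array (5.845) were all but equal. TLR3 passed higher (0.38 ± 0.11 in log2 units, 3 arrays per arm, limma adjusted p = 0.0389), which is a rise of at least 0.10 when counted from the level of 6. The call was lost with median centring (adjusted p = 0.053) and without siLSD1 replicate 2 or 3 or siNTC replicate 1 or 2 (0.084 to 0.13). A dimmer TLR3 probe set, 239587_at, separated the arms more clearly (0.44 ± 0.07, adjusted p = 0.0018), and the dimmest, 242667_at, did not pass (0.11, adjusted p = 0.37).

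MAVS, the adaptor on which RIG-I and MDA5 converge, was bright throughout. With DHT it gave 9.46, 9.57, 9.49 and 9.41, against 9.35, 9.33, 9.38 and 9.25 with vehicle. The groups did not overlap, and MAVS rose by 0.16 ± 0.05 on the log2 scale (n = 4 per group, adjusted p = 0.033, exact permutation p = 0.029). Leaving out DHT replicate 1, 2 or 3 or vehicle replicate 1, 2 or 4 ended this call (adjusted p = 0.053 to 0.088). It was also missed when every probe set was tested (adjusted p = 0.0502). Of its other probe sets, 220305_at (0.29 ± 0.05, adjusted p = 0.0029) and 229741_at (0.33 ± 0.05, adjusted p = 0.0013) rose as well. The dimmest, 231829_at, did not pass (0.05 ± 0.08, adjusted p = 0.67). With siLSD1, MAVS did not pass in C42B (0.04, adjusted p = 0.58) or LNCaP (0.13, adjusted p = 0.27). In LNCaP its 4 probe sets ran from −0.21 ± 0.08 to 0.32 ± 0.07, and 229741_at, the highest, passed by itself (adjusted p = 0.0125).

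TBK1, the kinase that activates IRF3, gave 10.71, 10.63, 10.68 and 10.75 with DHT, against 10.38, 10.48, 10.34 and 10.46 with vehicle. The lowest DHT array stood above the highest vehicle array. TBK1 rose by 0.28 ± 0.05 on the log2 scale, or 21.1% (n = 4 per group, adjusted p = 0.0016, exact permutation p = 0.029), and the call held under all 18 alternatives. With siLSD1 it did not pass in C42B (0.11, 95% interval −0.01 to 0.23, adjusted p = 0.20) or in LNCaP (−0.06, −0.20 to 0.08, adjusted p = 0.54).

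IRF3 itself fell with siLSD1 in both lines. In C42B it gave 9.30, 9.29 and 9.26 with siLSD1, against 9.46, 9.52 and 9.54 with siNTC. In LNCaP it gave 9.14, 9.18 and 9.00 with siLSD1, against 9.34, 9.37 and 9.55 with siNTC. The arms did not overlap in either line, and the falls were 14.1% in C42B (−0.22 ± 0.05 on the log2 scale, 3 arrays per arm, limma adjusted p = 0.0199) and 19.4% in LNCaP (−0.31 ± 0.08, n = 3 per group, adjusted p = 0.0208). In C42B the call ended without siLSD1 replicate 2 or 3 or siNTC replicate 2 or 3 (adjusted p = 0.064 to 0.082), and in LNCaP without siLSD1 replicate 3 (adjusted p = 0.082) or siNTC replicate 3 (adjusted p = 0.062). With DHT, IRF3 did not pass (0.10 ± 0.07, adjusted p = 0.35).

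IFNB1, the interferon gene at the end of the pathway, was dim in all 6 groups, with group means of 4.21 to 5.05. Between 9.25% and 22.7% of all genes had a lower group mean. In LNCaP it gave 5.06, 5.04 and 5.06 with siLSD1, against 4.96, 4.91 and 4.87 with siNTC. These groups did not overlap, but the difference missed the threshold (0.14 ± 0.06, n = 3 per group, limma adjusted p = 0.11), and no change of IFNB1 passed in any comparison. At this brightness a low level of the transcript was not resolved.

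EIF2AK2 encodes PKR, which halts translation when it binds dsRNA. It gave 9.16, 9.22 and 9.20 with siLSD1 in C42B, against 9.02, 8.99 and 8.94 with siNTC. In LNCaP it gave 9.15, 9.23 and 9.29 with siLSD1, against 9.01, 9.03 and 8.87 with siNTC. The arms did not overlap in either line, and the log2 fold change was 0.21 ± 0.05 in C42B (n = 3 per group, adjusted p = 0.0265) and 0.25 ± 0.07 in LNCaP (n = 3 per group, adjusted p = 0.031). These calls rested on probe set 213294_at: the next brightest, 204211_x_at, changed by 0.02 in each line (adjusted p = 0.86 and 0.91), and with the mean of all probe sets neither passed (0.06, adjusted p = 0.55, and 0.09, adjusted p = 0.31). In C42B the call was also lost without siLSD1 replicate 2 or 3 or any siNTC array (adjusted p = 0.051 to 0.098), and in LNCaP without siLSD1 replicate 2 or 3 or siNTC replicate 3 (0.094 to 0.115). With DHT, EIF2AK2 did not pass (0.12 ± 0.06, adjusted p = 0.19).

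ADAR, which edits adenosine to inosine in dsRNA, fell with DHT. It gave 11.64, 11.71, 11.66 and 11.52 with DHT, against 11.82, 11.86, 11.84 and 11.80 with vehicle, without overlap. The fall was 13.0% (−0.20 ± 0.05 on the log2 scale, 4 arrays per arm, limma adjusted p = 0.0099, exact permutation p = 0.029), and it passed under all 18 alternatives. In LNCaP the 6 arrays lay between 11.950 and 11.964, and the log2 fold change with siLSD1 was −0.004 (95% interval −0.12 to 0.12, adjusted p = 0.97). In C42B it was −0.12 with siLSD1 (−0.24 to 0.004, adjusted p = 0.17), which passed with eBayes set to trend and robust (adjusted p = 0.045).

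**Figure D2:**
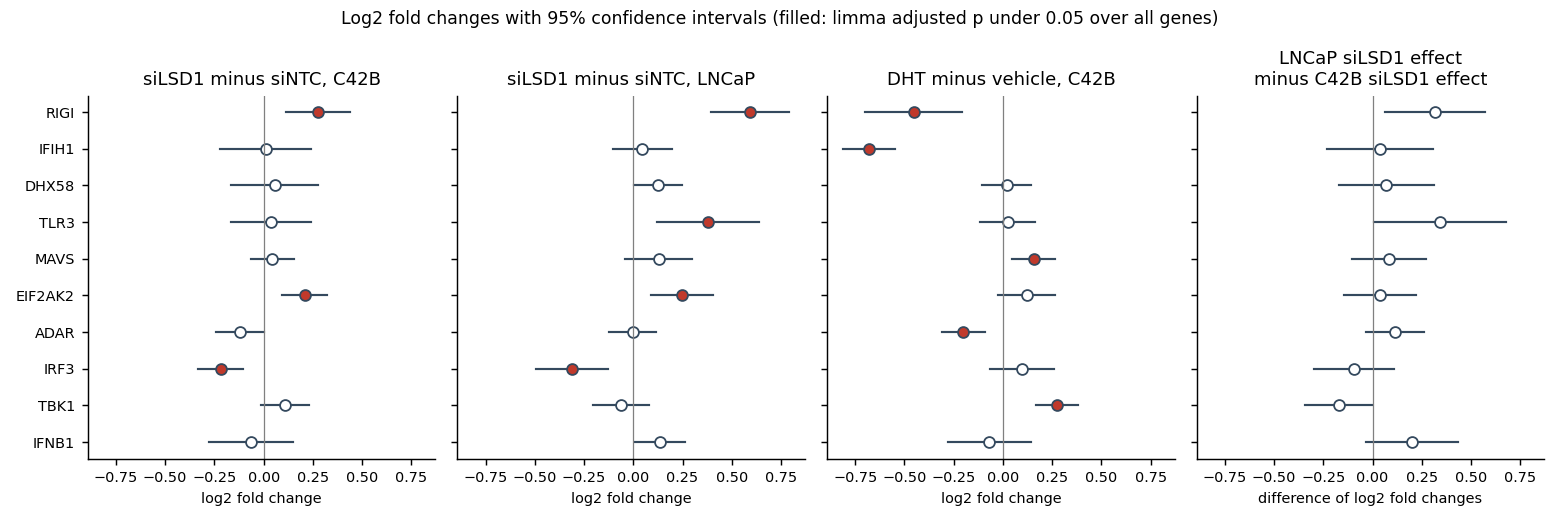
Log2 fold changes of the 10 members with 95% confidence intervals in the siLSD1 comparisons of C42B and LNCaP and in the DHT comparison, and the difference between the lines' siLSD1 effects (rightmost panel). Filled points passed, among them RIGI at 0.28 and 0.59 with siLSD1 and −0.45 with DHT, and none is filled in the rightmost panel.

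Whether siLSD1 acted differently in the lines was tested as LNCaP effect minus C42B effect over the 12 siRNA arrays. The lines were kept in different serum, and only LNCaP RNA is described as pooled from wells for each replicate, so line and culture conditions cannot be told apart. By brightest probe sets none of the 10 members passed in limma (lowest adjusted p = 0.106, that of RIGI), although 3 had an unadjusted p under 0.05, beside 6.07% of all genes called higher and 5.56% lower (11.6% in all). The RIGI effect was 0.59 in LNCaP and 0.28 in C42B, a difference of 0.32 ± 0.12. By the other RIGI probe sets the rise was larger in LNCaP. The difference was 1.17 ± 0.14 for 222793_at (adjusted p = 0.00025) and 0.85 ± 0.13 for 218943_s_at (adjusted p = 0.00127), and 0.78 with the mean of all RIGI probe sets (adjusted p = 4.16e-05). Of all 21 probe sets 5 passed higher in the difference, beside 4.33% of all probe sets higher and 4.12% lower: these were the 2 of RIGI, 239587_at and 242667_at of TLR3 and 229741_at of MAVS. Both of these TLR3 probe sets were dim in all 6 groups, and 242667_at changed by −0.27 with siLSD1 in C42B and by 0.11 in LNCaP. RIGI also passed among genes with a mean level of at least 7 (adjusted p = 0.049) and without LNCaP siNTC replicate 3 (adjusted p = 0.039), and TLR3 without LNCaP siLSD1 replicate 1 (adjusted p = 0.045), with arrayWeights (0.041) or with the mean of its probe sets (0.39, adjusted p = 0.0123).

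**Figure D3:**
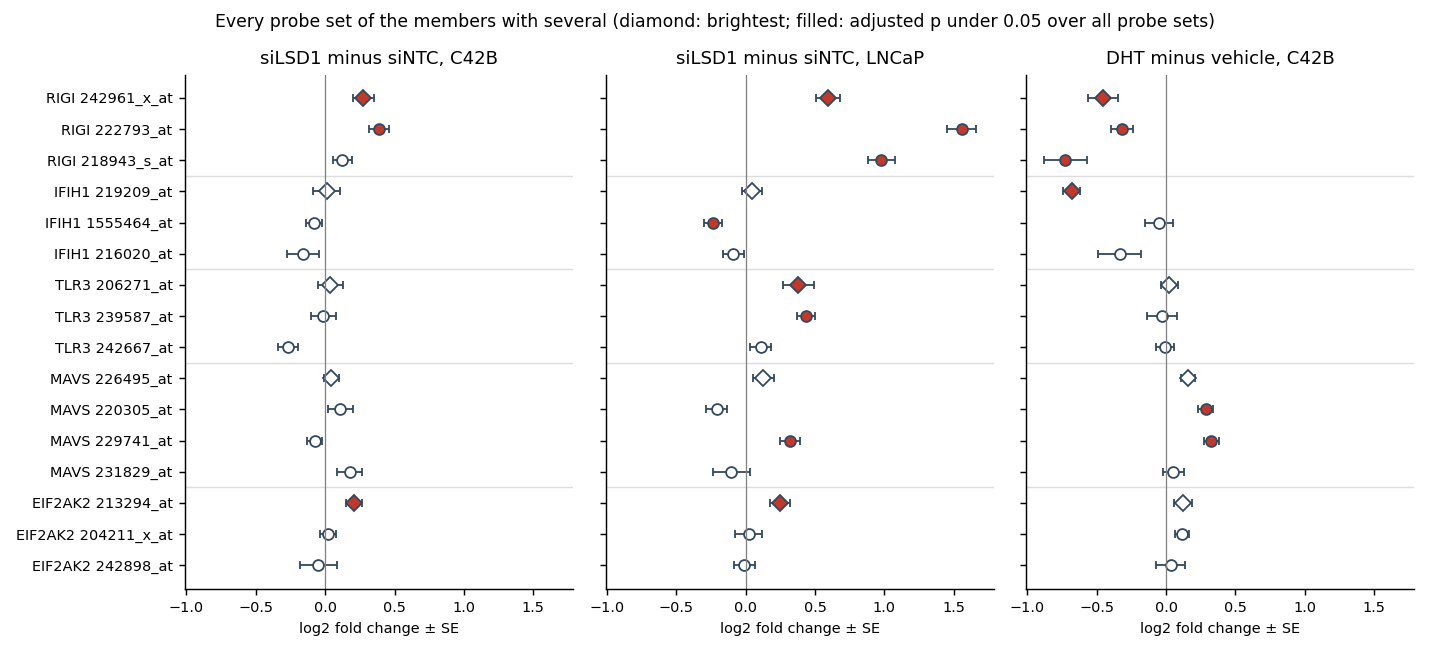
Log2 fold change with its SE for every probe set of the 5 members that have several, in the 3 comparisons, with diamonds for the brightest probe set. In LNCaP the RIGI probe sets 222793_at and 218943_s_at lie at 1.56 and 0.98, to the right of the brightest at 0.59, while the EIF2AK2 probe sets other than the brightest lie near 0.

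Genes around the pathway were counted from lists, and the counts in this and the following list paragraphs stand beside the shares of all genes called. With siLSD1 these shares were 8.66% higher and 9.39% lower in C42B, and 13.4% higher and 12.5% lower in LNCaP. With DHT they were 13.4% higher and 19.4% lower. Each list holds few genes, so a count near these shares is not a result about the list. Of 17 measured genes that carry the signal from MAVS and TLR3, none rose and 2 fell with siLSD1 in C42B, 2 rose and 2 fell in LNCaP, and 2 rose and 5 fell with DHT. NFKB1, a precursor of an NF-kappaB subunit, fell in all of them, by 0.35 ± 0.07, 0.56 ± 0.05 and 0.53 ± 0.05 on the log2 scale. IRF7, the relative of IRF3 that amplifies the response, fell with siLSD1 in C42B (−0.42 ± 0.06) and with DHT (−0.20 ± 0.07). TICAM1, the adaptor of TLR3, rose with siLSD1 in LNCaP (0.32 ± 0.06) while FADD fell (−0.31 ± 0.06). IKBKB, an NF-kappaB kinase, fell with DHT (−0.30 ± 0.06).

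Of 17 measured regulators of the helicases and MAVS, none rose and 2 fell with siLSD1 in C42B, 3 rose and 1 fell in LNCaP, and 4 rose and 6 fell with DHT. TRIM25 and RNF135, ubiquitin ligases that act on RIG-I, fell with DHT by 0.63 ± 0.05 and 0.45 ± 0.04 on the log2 scale, while MEX3C, another, did not pass (−0.10, adjusted p = 0.195). TNFAIP3, an inhibitor of NF-kappaB, rose with DHT (0.83 ± 0.06) and with siLSD1 in LNCaP (0.33 ± 0.07). DDX60, an interferon-induced helicase, and NLRX1, a mitochondrial regulator of MAVS signalling, rose in LNCaP as well (0.96 ± 0.11 and 0.64 ± 0.07). In C42B the falls with siLSD1 were those of RNF135 (−0.32 ± 0.04) and USP21 (−0.20 ± 0.06). The fall in LNCaP was that of RNF135 too (−0.27 ± 0.06).

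Of 16 measured genes that process or bind cellular dsRNA, 2 rose and 2 fell with siLSD1 in C42B, 3 rose and 3 fell in LNCaP, and 2 rose and 5 fell with DHT. The Argonaute AGO1 rose in LNCaP (0.68 ± 0.06), and AGO4 rose there too (0.29 ± 0.07), though not by the mean of its probe sets. With DHT, AGO4 fell by 0.98 ± 0.06 and AGO1 by 0.38 ± 0.07 on the log2 scale. ADARB1, another editing enzyme, fell with DHT by its brightest probe set (−0.33 ± 0.04), but the mean of its probe sets was 0.03 and did not pass. AGO1 did not pass with DHT by the mean of its probe sets either (−0.07, adjusted p = 0.39). DICER1, which cuts dsRNA, rose with siLSD1 in C42B (0.34 ± 0.08), as did STAU2 (0.31 ± 0.06). Neither of these calls held with the mean of all probe sets. ILF2 fell in C42B (−0.27 ± 0.05) and in LNCaP (−0.51 ± 0.06).

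All 17 measured interferon ligand genes of the list besides IFNB1 were dim in both arms of each comparison. With the receptors, 2 of 23 genes rose and none fell with siLSD1 in C42B, 2 rose and 2 fell in LNCaP, and 2 rose and 1 fell with DHT. The counts include IFNA14 (higher in C42B, lower in LNCaP) and IFNW1 (higher with DHT), which were dim and are named after their values were seen. IL10RB rose with siLSD1 in C42B (0.36 ± 0.09). In LNCaP the interferon-gamma receptor genes IFNGR2 (0.37 ± 0.06) and IFNGR1 (0.33 ± 0.07) rose and IFNAR1, a receptor chain for interferon-beta, fell (−0.21 ± 0.06). The IFNAR1 call was lost with the mean of all probe sets. With DHT, IFNGR1 rose (0.33 ± 0.04) and IFNGR2 fell (−0.33 ± 0.05).

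Of 10 measured genes that act below the interferon receptors, 1 rose and 1 fell with siLSD1 in C42B, 3 rose and 1 fell in LNCaP, and 2 rose and 2 fell with DHT. IRF9, the DNA-binding part of the complex that interferon activates, rose in LNCaP (0.81 ± 0.12). The ubiquitin-like modifier ISG15 rose in LNCaP (0.81 ± 0.07) and fell with siLSD1 in C42B (−0.24 ± 0.06) and with DHT (−0.27 ± 0.05). STAT3 rose in all of them, by 0.50 ± 0.05, 0.33 ± 0.06 and 0.20 ± 0.05. Its call in LNCaP was lost with the mean of all probe sets. USP18, which damps interferon signalling, rose with DHT (0.39 ± 0.05).

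Of 12 textbook IRF3 target genes, IFNB1 among them, 9 rose and 1 fell with siLSD1 in LNCaP, with a median log2 fold change of 1.87. In C42B 3 rose and 1 fell with a median of 0.07, and with DHT 2 rose and 2 fell with a median of −0.02. Such genes had already been seen to rise in these LNCaP arrays when the list was written, so their direction is no independent evidence. The C42B rises were those of IFIT1 (at least 0.80 counted from 6, dim with siNTC), HERC5 (0.39 ± 0.05) and OASL (0.31 ± 0.05), and ISG15 fell. In LNCaP, IFIT1 rose by 2.55 ± 0.09 and OASL by 2.16 ± 0.06 on the log2 scale. RIGI rose there by 0.59 by its brightest probe set, and by 1.56 and 0.98 by its others. IRF3 fell by 0.31 on the same scale. In the test of the difference between the lines, 8 of the 12 passed higher in LNCaP and 1 lower. Of all genes, 6.07% passed higher and 5.56% lower in that test. CXCL10 and RSAD2 were among the 8 and were dim in both C42B arms, and RSAD2 is named after its values were seen. With DHT, HERC5, a ligase for ISG15, rose (1.83 ± 0.06), while IFIT1, an RNA-binding protein, fell to a dim level (at least 0.06 counted from 6). In LNCaP the 10 leukocyte markers summed to intensities between 341.5 and 355.4 on siLSD1 arrays and between 324.2 and 343.8 on siNTC arrays, so the groups overlapped, and none of the 10 passed.

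Neighbouring sensor systems were counted for comparison. Among all genes, 8.66% were called higher and 9.39% lower in C42B, 13.4% and 12.5% in LNCaP, and 13.4% and 19.4% with DHT. Of 9 measured DNA sensing genes, 2 rose and 1 fell with siLSD1 in C42B, none rose and 1 fell in LNCaP, and none rose and 3 fell with DHT. IFI16, higher in C42B, and CGAS, lower with DHT, were dim and are likewise named after their values were seen. DDX41 fell with siLSD1 in both lines (−0.29 ± 0.05 in C42B and −0.23 ± 0.07 in LNCaP), and DNASE2, a lysosomal nuclease, rose in C42B (0.18 ± 0.05) and fell with DHT (−0.51 ± 0.04). SAMHD1, which breaks down deoxynucleotides, fell with DHT (−0.41 ± 0.05). Of 11 other Toll-like receptor genes and adaptors, 1 fell in C42B, none passed in LNCaP and 2 fell with DHT. The mean of all probe sets ended the siLSD1 calls of DICER1, STAU2 and DNASE2 in C42B and of AGO4, IFNAR1 and STAT3 in LNCaP. It also ended the DHT calls of AGO1, ADARB1 and TIRAP. The Toll-like receptor calls were TLR5, the flagellin receptor, with siLSD1 in C42B (−0.35 ± 0.09) and, dim in both groups, with DHT, and the adaptor TIRAP with DHT (−0.17 ± 0.05).

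**Figure D4:**
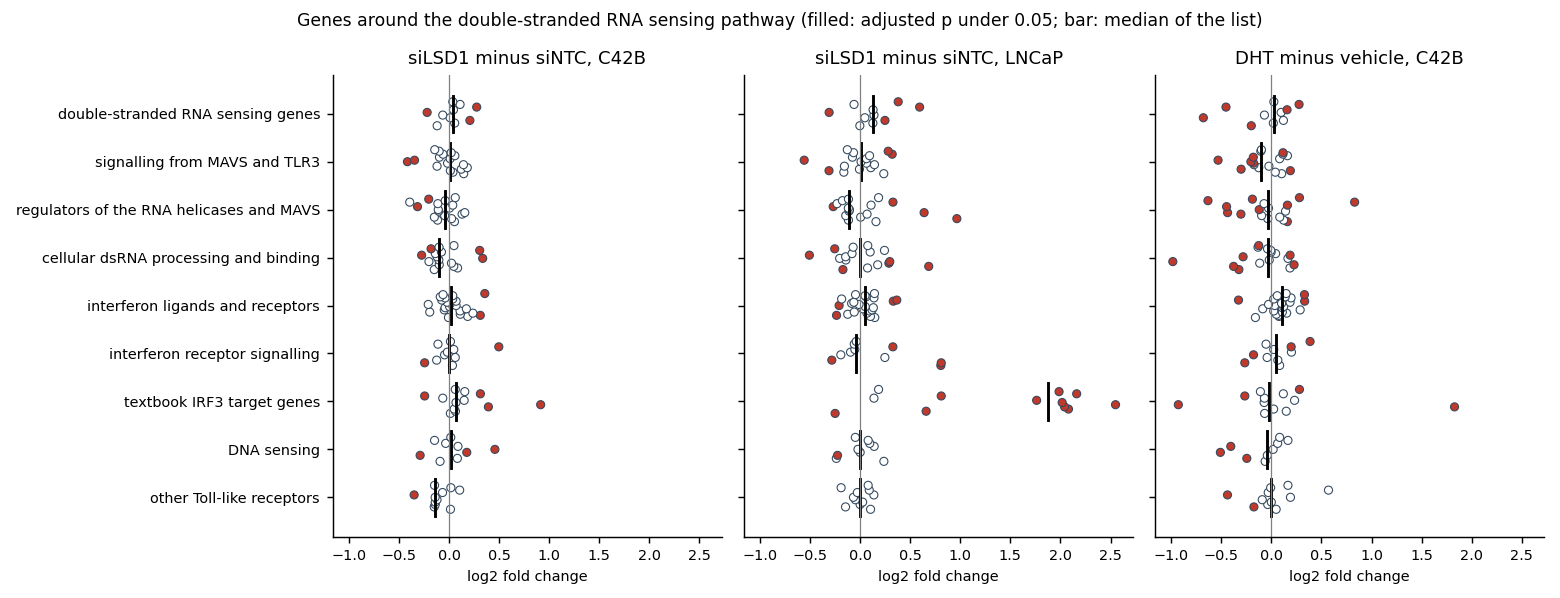
Log2 fold change of every measured gene of the pathway lists (points, filled where the adjusted p was under 0.05) with the list median (bars), in the 3 comparisons. The IRF3 target genes have a median of 1.87 with siLSD1 in LNCaP and of 0.07 in C42B, while the dsRNA sensing genes have medians of 0.13 and 0.04.

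The genes most like each helicase were sought by Pearson correlation over the 20 arrays, after the mean of each experiment was subtracted. The arrays of an experiment share their normalization, so these values only describe likeness. Differences between the arms entered the correlation, so directions of change shared with a helicase follow largely from the choice. Nearest to RIGI were CARINH (r = 0.93), JAZF1 (0.92), CLUL1 (0.91), SIK1 (0.91) and SERINC3 (0.90). Like RIGI, all of these had positive log2 fold changes with siLSD1 in both lines and negative ones with DHT. Nearest to IFIH1 were MBOAT1 (0.96), MRNIP-DT (0.94), NDP (0.94), DNAI7 (0.94) and SLC16A14 (0.94), with log2 fold changes of −1.36 to −0.83 with DHT. Nearest to DHX58 were LINC02616 (0.89), SLC6A12-AS1 (0.81), ZBTB7C (0.76), LRRN3 (0.76) and LINC00320 (0.74), whose changes in each comparison were at most 0.18 in size.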

How the data were processed

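Per the submitters' processing notes, the authors made the deposited intensity values with RMA in the affy package, of unstated version. These values are linear, 1 per probe set, for 54675 probe sets on 20 arrays, and log2 was taken of each. The depth of such arrays is not a count, and the number of arrays limits the precision. In the annotation used here 41091 probe sets name 1 gene, and each of 19775 genes was read by the one with the highest mean over the 20 arrays. No dim probe set was removed.

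Each comparison was fitted on its own arrays with lmFit and eBayes of limma 3.58.1 (R 4.3.3), two-sided, without covariates, with Benjamini-Hochberg adjustment over all genes and a threshold of 0.05. The difference between the lines was a contrast over 12 arrays. More than 1 RNA labelling kit was used, per the labels, but not tied to samples there, and an effect of the kit between experiments was not tested. Single members also had an exact permutation test. The fit was also run on simulated data with independent noise between arrays, as a check of the code and not of the member calls. The shifts added there were larger than most member changes. The promoter search used Python 3.11.15 with pandas 2.3.3, and figures used matplotlib 3.10.9 and numpy 2.4.6.

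Members and lists were chosen with earlier results of these data known. The text names all 10 members, KDM1A, up to 3 passing bright genes per list and comparison, and the 5 genes most like RIGI, IFIH1 and DHX58. Same-numbered arrays did not deviate together, so numbers were not used as pairs. Alternatives were the mean of all probe sets, every probe set, bright genes only, a mean level of at least 7, arrayWeights, median centring, 1 fit of 20 arrays, the replicate number as a block, quantile normalization, trend and robust options of eBayes, and each array left out.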

Additional observations from a re-analysis of the deposited data

Results flagged for a closer look

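By Dixon's criterion for 4 values no member had an outlying DHT or vehicle array, although IFNB1 was at 4.42 on DHT replicate 4 and at 4.10 to 4.18 on the other DHT arrays, and by its brightest probe set no member passed the test of the difference between the lines' siLSD1 effects. Genes named from the lists that passed it in limma (LNCaP effect minus C42B effect, adjusted p under 0.05) follow. Among IRF3 targets and interferon signalling genes the difference was 2.03 ± 0.19 for CXCL10, 1.95 ± 0.24 for IFIT2, 1.85 ± 0.08 for OASL, 1.05 ± 0.10 for ISG15 and 0.77 ± 0.17 for IRF9. CXCL10 was dim in both C42B arms and in LNCaP with siNTC, so its C42B effect was not resolved and its LNCaP rise was at least 1.961 counted from 6. Among signalling genes and regulators it was 0.94 ± 0.15 for DDX60, 0.72 ± 0.14 for TNFAIP3, 0.48 ± 0.09 for NLRX1, 0.42 ± 0.08 for IRF7, 0.38 ± 0.10 for TICAM1 and 0.38 ± 0.10 for TRAF3. DDX60 was dim in both C42B arms, where its effect was not resolved. Among dsRNA processing genes it was 0.64 ± 0.08 for AGO1, 0.50 ± 0.10 for AGO4 and −0.54 ± 0.14 for DICER1. The siLSD1 calls of AGO4 in LNCaP and of DICER1 in C42B were lost with the mean of all probe sets. In the other line neither passed in limma (AGO4 −0.20 in C42B, adjusted p = 0.064, and DICER1 −0.21 in LNCaP, adjusted p = 0.22). The difference was 0.44 ± 0.08 for IFNGR2 and 0.48 ± 0.13 for TLR5. Line and serum cannot be told apart in these differences. Markers of other kinds differed too, with −0.62 ± 0.12 for ACTA2, −0.50 ± 0.08 for SLC45A3 and −0.34 ± 0.07 for KLK2. In LNCaP the 8 stromal and endothelial markers summed to intensities between 840.0 and 878.6 on siLSD1 arrays and between 986 and 1099 on siNTC arrays, with COL3A1 (−0.77 ± 0.13) and ACTA2 (−0.66 ± 0.06) lower, and their part in these differences was not tested.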

How the results depend on the processing

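Averaging all probe sets of a gene turned the log2 fold change of IFIH1 with siLSD1 to −0.077 in C42B and −0.092 in LNCaP, of TLR3 to −0.081 in C42B and −0.004 with DHT, of ADARB1 with DHT to 0.028, and of the difference between the lines to −0.016 for IFIH1 and −0.029 for MAVS. TLR3 also turned to −0.018 with arrayWeights in C42B and −0.001 with quantile normalization with DHT. Leaving out single arrays gave −0.072 to 0.096 for IFIH1, −0.015 to 0.139 for DHX58, −0.056 to 0.105 for TLR3 and −0.139 to 0.019 for IFNB1 in C42B, −0.007 to 0.062 for DHX58 and −0.029 to 0.059 for TLR3 with DHT, and −0.05 to 0.118 for IFIH1, −0.013 to 0.141 for DHX58 and −0.011 to 0.077 for EIF2AK2 in the difference. None of the members that turned had passed; ADARB1 had.

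In C42B with siLSD1, the members called higher numbered 1 with the mean of all probe sets, 1 with all 20 arrays in 1 fit, where RIGI no longer passed (adjusted p = 0.081), and 1 with the replicate block; called lower they numbered 0 with the block and 2 with eBayes set to trend and robust. Leaving out single arrays gave 0 to 1 called higher, 0 to 1 lower and 1907 to 3962 genes called, against 3569 with all arrays. In LNCaP it gave 1 to 3 members higher and 0 to 1 lower, with DHT 1 to 2 higher, and in the difference 0 to 1 higher. With every probe set tested, 8992 passed in LNCaP against 5120 genes, 11091 with DHT against 6470, with 1 member higher, and 3470 in the difference against 2300. In the difference, arrayWeights called 3557 genes and 1 member higher, a mean level of at least 7 called 1, and the mean of all probe sets called 2. More features were tested with every probe set; the other causes were not tested.

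The labels number replicates in every group, but the deviations of same-numbered arrays correlated at −0.096 to 0.199, so the numbers are not taken to pair arrays. With the replicate block, EIF2AK2 (adjusted p = 0.0635) and IRF3 (0.0551) in C42B and EIF2AK2 in LNCaP (0.0582) no longer passed in limma. Few arrays and dim signal limit what can be said of IFNB1 and of TLR3 in C42B.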
